A study of Mus musculus with 6 samples.

Results

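Immune checkpoint ligands and costimulators are surface or secreted proteins by which tumor cells and myeloid cells restrain or support T cells, NK cells and macrophages. The 10 genes Cd274, Pdcd1lg2, Cd80, Cd86, Vsir, Lgals9, Havcr2, Cd47, Pvr and Nt5e were taken from the expression table by gene symbol, out of 21899 genes listed. Every symbol was found on a single row. Of the 10, 9 passed the filter of a mean of at least 1 FPKM (a fragment count divided by the length of the gene's exons and the sample's total of counted fragments) over all samples, as did 10853 genes of the table, and Pdcd1lg2 stayed below it.

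The tumors were grown from LLC-luc cells, a luciferase-carrying line of Lewis lung carcinoma, injected under the skin near the axilla of male C57BL/6 mice of 18 to 20 g, described as adult in the study's methods. RNA of 6 tumor samples was sequenced, 2 in each of 3 groups, and nothing states that both samples of a group came from separate animals: Laser (saline and laser light), PC-La (phycocyanin, a light-absorbing cyanobacterial protein used as photosensitizer, and laser light) and SePC-La (selenium-containing phycocyanin from selenium-enriched Spirulina, and laser light). The labels give 620 nm light for 10 min, 4 h after each injection, with injections every 5 days, and the methods text of the study gives another wavelength and another interval. All 3 groups, the Laser group included, were irradiated, and no unirradiated tumor was among the samples used here, so every difference below is between irradiated tumors.

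T cells need a signal through CD28, which CD80 and CD86 on antigen-presenting cells provide, and CTLA-4 competes for the same ligands and dampens the response. PD-L1 and PD-L2 bind PD-1 on activated T cells and restrain them, VISTA and galectin-9 with its receptor TIM-3 act in the same sense, and CD47 tells macrophages not to engulf the cell that bears it. CD155, the product of Pvr, is bound by the inhibitory receptor TIGIT and the activating receptor CD226, and CD73, the product of Nt5e, makes immunosuppressive adenosine outside cells. Interferon gamma is a well-known inducer of PD-L1 in tumor cells and macrophages.

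The number of reads recovered from the FPKM values lay between 14447792 and 17649489 per sample. Of the 3 groups, the Laser samples were the least alike: across genes, log2(FPKM + 1) of Laser replicates 1 and 2 correlated at 0.946, whereas Laser replicate 1 correlated at 0.986 and 0.983 with the PC-La samples. The 4 summed skeletal muscle markers reached 14.7 and 107 FPKM in Laser replicates 1 and 2, against 0.0437 to 3.63 in the other groups. Each of the 4 was lower in PC-La and in SePC-La than in Laser without overlap, beside 21.6% and 25.6% of all tested genes. The part of muscle tissue in the differences from Laser was not tested. Laser replicate 2 also held 288 FPKM of 7 summed fibroblast markers against 1243 in Laser replicate 1. SePC-La replicate 1 had the lowest macrophage sum, 408 FPKM over 10 markers, against 687 to 984 in the rest, and the lowest fibroblast sum, 122 FPKM. Since tumor tissue was sequenced in bulk, fewer cells of a type and less RNA per cell cannot be told apart. Of 7 lung epithelium markers 1, Ager, passed the filter, the sum lay between 0.679 and 1.74 FPKM, and Scgb1a1 and Nkx2-1 were at 0 in every sample. Differences were tested with limma on log2(FPKM + 1), and log2 fold changes below are on that scale, which understates the change of low genes.

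No gene of the 10 met the criterion of the study, an absolute log2 fold change over 1 with an unadjusted p under 0.05, in any of the 3 comparisons. Across all tested genes the criterion was met by 1.29% for PC-La vs Laser, 0.682% for SePC-La vs Laser and 2.98% for SePC-La vs PC-La. At an unadjusted p under 0.05 alone the counts were 2 of 9, 3 of 9 and 1 of 9, beside 5.78%, 12.1% and 24.3% of all genes. No member, and no gene of the table, had a Benjamini-Hochberg adjusted p under 0.05 in this limma fit, and the smallest values among the 9 were 0.753, 0.376 and 0.156. In number, 627, 1318 and 2637 genes of the table had an unadjusted p under 0.05, and with limma voom on recovered reads 623, 1399 and 2520 did and 0 had an adjusted p under 0.05. The pattern of each gene therefore is given by its 6 values, with the fit beside it.

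Cd47 and Lgals9 were the most abundant in each group, with means between 29.7 and 47.1 FPKM. Vsir, Cd274, Pvr and Havcr2 followed with means between 6.87 and 17.0 FPKM, then Cd86 and Cd80, and Nt5e and Pdcd1lg2 came last, with means between 0.503 and 1.37 FPKM. The order in Laser was Cd47, Lgals9, Vsir, Pvr, Cd274, Havcr2, Cd86, Cd80, Nt5e and Pdcd1lg2, and 4 of its 9 neighbor pairs overlapped in their values: Vsir with Pvr, Pvr with Cd274, Cd86 with Cd80, and Nt5e with Pdcd1lg2. In PC-La, Lgals9 stood above Cd47 and Cd274 above Pvr, and 0 of 9 neighbor pairs overlapped. In SePC-La, Cd274 stood below Cd47 and Lgals9 and above Vsir, and 2 of 9 pairs overlapped, Vsir with Pvr and Nt5e with Pdcd1lg2.

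**Figure D1:**
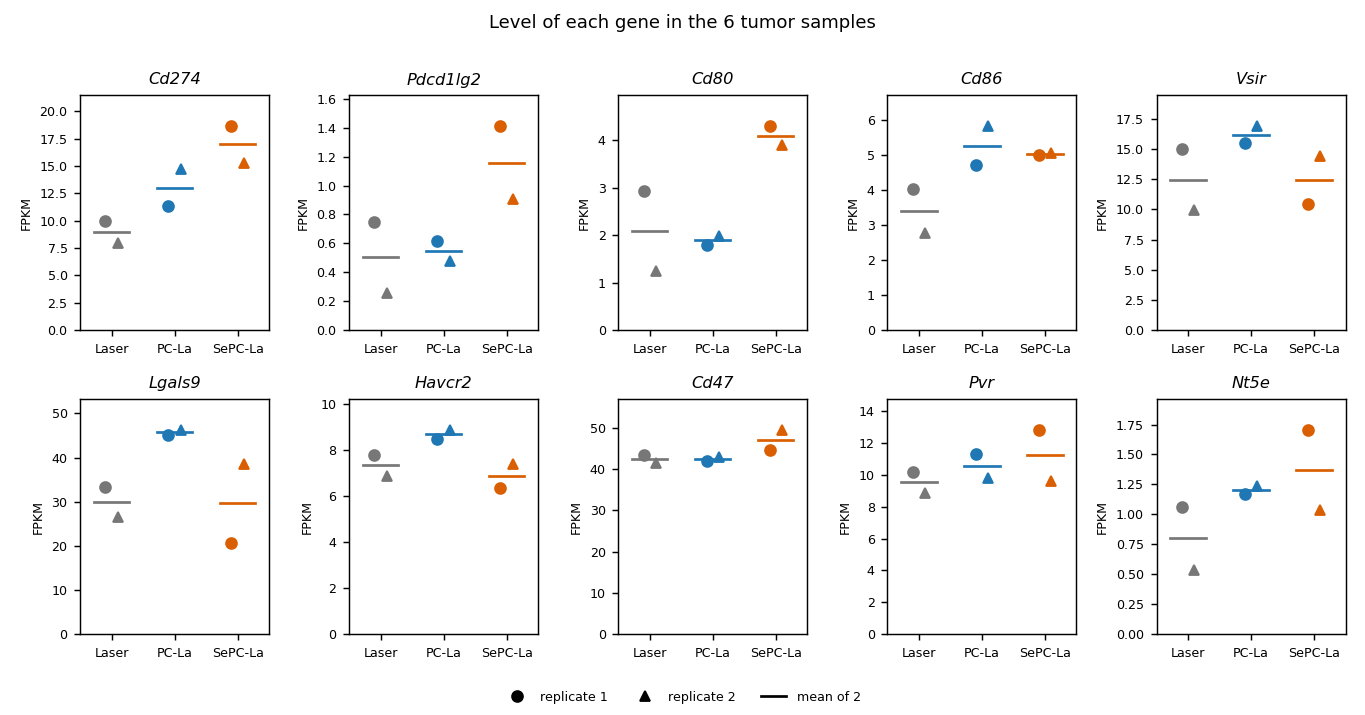
FPKM of the 10 genes in the 6 samples, with a panel for each gene and its own linear axis from 0; circles are replicate 1, triangles replicate 2 and lines the mean of 2. The mean of Cd274 is 9.0 in Laser and 17.0 in SePC-La, Cd80 separates SePC-La at 3.9 and 4.30 from the other samples, and Lgals9 separates PC-La at 45.2 and 46.3 from the rest.

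Cd274, Cd80 and Lgals9 had the largest log2 fold changes of SePC-La vs Laser, SePC-La vs PC-La and PC-La vs Laser among the 9 tested genes on the log2(FPKM + 1) scale, and the 250 bases before their annotated start are given 5′ to 3′ on the gene's strand, from the RefSeq annotation of build GRCm38.p6, with matches of 4 motifs in capitals. The motifs, searched on both strands, were TTCNNNGAA (the interferon-gamma-activated site), the interferon response element (GAAA, any 2 bases and GAAA again, bound by IRF proteins), TGANTCA (the AP-1 site) and ACGTG (the core of the hypoxia response element). The Cd274 stretch is chr19:29367188-29367437 on the plus strand, the Cd80 stretch chr16:38458683-38458932 on the plus strand and the Lgals9 stretch chr11:78984925-78985174 on the minus strand.
Cd274: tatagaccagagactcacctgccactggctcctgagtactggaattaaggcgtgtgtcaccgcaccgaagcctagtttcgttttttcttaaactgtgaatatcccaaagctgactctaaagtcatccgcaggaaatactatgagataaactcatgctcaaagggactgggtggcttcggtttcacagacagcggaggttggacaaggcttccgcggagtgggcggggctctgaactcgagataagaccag
Cd80: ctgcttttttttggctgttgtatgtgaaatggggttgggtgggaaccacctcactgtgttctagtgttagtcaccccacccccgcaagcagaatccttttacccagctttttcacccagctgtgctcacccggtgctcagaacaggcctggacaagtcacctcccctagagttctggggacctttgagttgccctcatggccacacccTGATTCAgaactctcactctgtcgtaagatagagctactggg
Lgals9: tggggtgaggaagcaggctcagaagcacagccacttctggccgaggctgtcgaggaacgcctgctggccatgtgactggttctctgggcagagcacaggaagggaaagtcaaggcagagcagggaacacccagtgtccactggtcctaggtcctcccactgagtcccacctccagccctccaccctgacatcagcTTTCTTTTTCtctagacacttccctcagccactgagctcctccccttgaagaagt

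The Cd80 stretch held the AP-1 match TGATTCA from base -42 to -36 relative to the start, and the Lgals9 stretch held TTTCTTTTTC from -55 to -46, which is the interferon response element read on the other strand. No match of the 4 motifs was in the Cd274 stretch. Among 32851 promoters of the same length, TTCNNNGAA was in 7.02%, the interferon response element in 2.98%, TGANTCA in 6.75% and ACGTG in 16.6%. Promoters were in hand for 8 of the 10 genes, and 4 of those, Cd274, Pdcd1lg2, Vsir and Nt5e, had no match. Havcr2 had TGATTCA and ACGTG, and Cd47 had ACGTG on the minus strand. Promoters of Cd86 and Pvr were not used here. The RefSeq start of Cd80 lies 3372 bases inside the GENCODE M21 gene interval given below for it, and those of Cd47 lie 55121 and 55128 bases inside, so these windows belong to the RefSeq starts. The matches are letters in a window and were not tested as binding sites, and no 2 of them overlapped.

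Cd274 encodes PD-L1, and the gene ENSMUSG00000016496 lies on chromosome 19 from 29367455 to 29388095, plus strand, in GENCODE M21 on GRCm38. Its FPKM were 9.99 and 8.01 in the Laser libraries, 11.3 and 14.8 in the PC-La libraries, and 18.7 and 15.3 in the SePC-La libraries. No Laser sample reached a PC-La sample and no PC-La sample reached a SePC-La sample, so the groups stood in the order Laser, PC-La, SePC-La without overlap. The means were 9.0 ± 1.40, 13.0 ± 2.44 and 17.0 ± 2.38 FPKM (SD, n = 2 each), which is 1.89 times as high in SePC-La as in Laser. For SePC-La vs Laser the log2 fold change was 0.85 with an SE of 0.19 and a 95% interval from 0.40 to 1.3, an unadjusted p of 0.00338 and an adjusted p of 0.376 (limma, Benjamini-Hochberg). For PC-La vs Laser it was 0.48 (interval 0.03 to 0.93) with an adjusted p of 0.753, and for SePC-La vs PC-La 0.36 (interval -0.09 to 0.81) with an adjusted p of 0.274, in the same fit. The value for SePC-La vs Laser was 0.70 without Laser replicate 2 and 0.71 without SePC-La replicate 1. An antisense gene overlaps a Cd274 exon, and whether the counting used strand was not stated, so reads of both cannot be told apart. The summed level of 8 neutrophil markers, of which 6 passed the filter, was also highest in SePC-La, at 337 and 462 FPKM against 161 and 34.6 in the Laser libraries and 156 and 91.2 in the PC-La libraries, and its part in the Cd274 values was not tested.

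Pdcd1lg2 encodes PD-L2, the other ligand of PD-1, and ENSMUSG00000016498 begins 22823 bases after the end of Cd274, on chromosome 19 from 29410919 to 29471161, plus strand. Its FPKM were 0.746 and 0.260 in the Laser libraries, 0.620 and 0.477 in the PC-La libraries, and 1.41 and 0.905 in the SePC-La libraries, both SePC-La samples above the other samples. These values rest on 9 to 40 reads per sample: Laser replicate 2, with 9 reads, has a 95% Poisson interval of 0.119 to 0.494 FPKM, and SePC-La replicate 1, with 40 reads, one of 1.01 to 1.92 FPKM. Such intervals cover counting error only. In a limma fit with no filter on low values the log2 fold change was 0.53 for SePC-La vs Laser (SE 0.22, adjusted p 0.520), 0.47 for SePC-La vs PC-La (adjusted p 0.312) and 0.06 for PC-La vs Laser (adjusted p 0.958). Within each sample Cd274 was 13.2 to 30.9 times as high as Pdcd1lg2 in FPKM, and that ratio overlapped between Laser and each of the other groups but not between PC-La (18.2 and 30.9) and SePC-La (13.2 and 16.9).

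Cd80 and Cd86 are the ligands that CD28 and CTLA-4 share, and their group orders differed. Cd80, ENSMUSG00000075122 on chromosome 16 from 38455561 to 38496335, plus strand, read 2.92 and 1.24 FPKM in the Laser libraries, 1.80 and 1.98 in the PC-La libraries, and 4.30 and 3.9 in the SePC-La libraries. Both SePC-La samples exceeded the other 4, and the PC-La samples lay between the Laser samples. The mean was 4.10 ± 0.284 FPKM in SePC-La (SD, n = 2), 2.17 times that of PC-La (1.89 ± 0.133) and 1.97 times that of Laser (2.08 ± 1.19). The limma log2 fold change was 0.82 for SePC-La vs PC-La (SE 0.27, interval 0.17 to 1.47, unadjusted p 0.0210, adjusted p 0.156), 0.78 for SePC-La vs Laser (SE 0.27, interval 0.13 to 1.43, adjusted p 0.382) and -0.04 for PC-La vs Laser (interval -0.68 to 0.61). The pseudocount mattered here: with 0.1 in place of 1 FPKM, both SePC-La differences met the criterion, at 1.08 against PC-La and 1.06 against Laser. The difference from Laser depended on the Laser sample used, being 1.19 without Laser replicate 1 and 0.38 without Laser replicate 2. When only the 4 samples of SePC-La and PC-La were fitted, the limma adjusted p for that pair was 0.0419. In that fit 637 of 10853 genes had an adjusted p under 0.05, against 0 in the fit of all 6 samples.

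Cd86, ENSMUSG00000022901 on chromosome 16 from 36603869 to 36666081, minus strand, read 4.03 and 2.77 FPKM in the Laser libraries, 4.70 and 5.82 in the PC-La libraries, and 4.99 and 5.04 in the SePC-La libraries. It was higher in all 4 samples that received a phycocyanin than in the Laser libraries, with PC-La spanning the SePC-La values. The mean of PC-La was 1.55 times and that of SePC-La 1.47 times the Laser mean. The limma log2 fold change was 0.52 for PC-La vs Laser (SE 0.18, unadjusted p 0.0289, adjusted p 0.753) and 0.47 for SePC-La vs Laser (SE 0.18, unadjusted p 0.0428, adjusted p 0.404), and -0.05 for SePC-La vs PC-La with an interval from -0.50 to 0.39. Without Laser replicate 2 the differences from Laser were 0.31 and 0.26. The summed level of 9 dendritic cell markers, of which 4 passed the filter, was 26.8 and 35.3 FPKM in PC-La, 21.9 and 13.7 in Laser, and 15.5 and 18.5 in SePC-La, and its part in the Cd86 values was not tested. Within that sum Itgax had means of 15.2, 5.03 and 6.25 FPKM in PC-La, Laser and SePC-La. Clec9a had 9.30, 8.36 and 6.05 FPKM in the same order.

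The ratio of Cd86 to Cd80 within a sample separated all 3 groups. It was 1.38 and 2.24 in the Laser libraries, 2.62 and 2.93 in the PC-La libraries, and 1.16 and 1.29 in the SePC-La libraries, so the PC-La samples had the highest and the SePC-La samples the lowest values, with no overlap. The ratio was chosen after its values were seen and is a description with no test. Both genes were read from few fragments, 81 to 252 reads for Cd80 and 179 to 322 for Cd86 per sample.

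**Figure D2:**
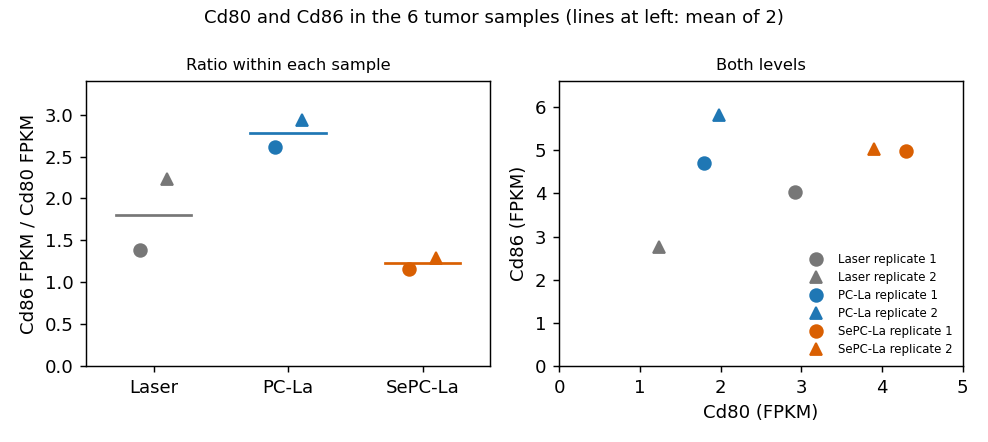
Left, the ratio of Cd86 to Cd80 FPKM within each of the 6 samples by group, with the mean of 2 as a line; right, Cd86 (vertical, FPKM) against Cd80 (horizontal, FPKM), with a point for each sample. The SePC-La samples sit at 3.9 and 4.30 FPKM of Cd80, apart from the PC-La samples at 1.80 and 1.98, while their Cd86 levels lie within those of PC-La.

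Lgals9, Havcr2 and Vsir were highest in PC-La. Lgals9 encodes galectin-9, and ENSMUSG00000001123 lies on chromosome 11 from 78962974 to 78984946, minus strand. Its FPKM were 33.4 and 26.4 in the Laser libraries, 45.2 and 46.3 in the PC-La libraries, and 20.7 and 38.6 in the SePC-La libraries. Both PC-La samples exceeded the other 4, and the SePC-La samples lay on either side of the Laser samples, as far apart as 640 and 1441 reads. The mean of PC-La, 45.7 ± 0.753 FPKM (SD, n = 2), was 1.53 times that of Laser (29.9 ± 4.91), and that of SePC-La (29.7 ± 12.7) was 0.649 times that of PC-La. The limma log2 fold change was 0.61 for PC-La vs Laser (SE 0.29, interval -0.09 to 1.3, adjusted p 0.753), -0.67 for SePC-La vs PC-La (interval -1.37 to 0.03, adjusted p 0.217) and -0.07 for SePC-La vs Laser (interval -0.76 to 0.63, adjusted p 0.938). The value against PC-La rested on SePC-La replicate 1: it was -1.11, meeting the criterion, with that sample alone, and -0.24 with replicate 2 alone.

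Havcr2 encodes TIM-3, and ENSMUSG00000020399 is on chromosome 11 from 46454935 to 46481255, plus strand. It read 7.79 and 6.85 FPKM in the Laser libraries, 8.47 and 8.87 in the PC-La libraries, and 6.36 and 7.39 in the SePC-La libraries, so its PC-La samples were above the others, with a mean at 1.18 times that of Laser. In limma, its log2 fold change was 0.22 for PC-La vs Laser (interval -0.11 to 0.55, adjusted p 0.753) and -0.30 for SePC-La vs PC-La (interval -0.63 to 0.03, adjusted p 0.238). Within a sample, Lgals9 was 3.26 to 5.34 times as high as Havcr2 in FPKM.

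Vsir encodes VISTA, and ENSMUSG00000020101 is on chromosome 10 from 60346851 to 60372684, plus strand. It read 15.0 and 9.94 FPKM in the Laser libraries, 15.5 and 16.9 in the PC-La libraries, and 10.4 and 14.4 in the SePC-La libraries. Its PC-La values were above the others and close to Laser replicate 1. By limma, Vsir had a log2 fold change of 0.38 for PC-La vs Laser (interval -0.17 to 0.92, adjusted p 0.753), -0.37 for SePC-La vs PC-La (interval -0.92 to 0.18, adjusted p 0.338) and 0.00 for SePC-La vs Laser (interval -0.54 to 0.55). Against Laser, PC-La was 0.10 higher when Laser replicate 2 was left out and 0.65 higher when replicate 1 was.

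These 3 genes are known to be expressed by myeloid cells, and 10 macrophage markers, all past the filter, were read beside them. Their summed level was 923 and 984 FPKM in PC-La, 687 and 732 in Laser, and 408 and 755 in SePC-La, with the lowest value in SePC-La replicate 1, where Lgals9 and Havcr2 also were lowest. The complement genes C1qa, C1qb and C1qc made up 68.7% to 82.5% of that sum, and the sum of the other 7 markers overlapped between the groups, at 161 and 174 FPKM in PC-La, 173 and 191 in Laser, and 128 and 199 in SePC-La. Against PC-La, 2 of the 10 markers, C1qa and C1qc, met the criterion as lower in SePC-La, each with a limma log2 fold change of -1.01. Of all tested genes 2.98% met it in either direction. By the sign of that fit 7 of the 10 markers were lower and 3 higher. Outside the complement genes, Mertk was at -0.95, Adgre1 at -0.82, Csf1r at -0.78 and Fcgr1 at -0.11. Cd68, Mrc1 and Msr1 had values of 0.31, 0.28 and 0.25. For PC-La vs Laser 6 of the 10 markers were higher and 4 lower by the sign of the fit, among them Cd68 at -0.24, Mrc1 at -0.92 and Msr1 at -0.41. The part of these cells in the Lgals9, Havcr2 and Vsir values was not tested.

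Cd47 and Pvr differed least between the groups, and Nt5e was measured at low level. Cd47 encodes the ligand of SIRP alpha that protects cells from phagocytosis, and ENSMUSG00000055447 is on chromosome 16 from 49800533 to 49915010, plus strand. It read 43.5 and 41.6 FPKM in the Laser libraries, 42 and 42.9 in the PC-La libraries, and 44.6 and 49.6 in the SePC-La libraries, on 4027 to 5430 reads per sample. Its highest value was 1.19 times its lowest, the narrowest span of the 10 genes. SePC-La was above the others, at 1.11 times either mean, with a limma log2 fold change of 0.14 against Laser (interval -0.14 to 0.42, adjusted p 0.630) and 0.14 against PC-La (interval -0.14 to 0.43, adjusted p 0.461). Between PC-La and Laser the interval ran from -0.29 to 0.28.

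Pvr, ENSMUSG00000040511 on chromosome 7 from 19903578 to 19921160, minus strand, read 10.2 and 8.88 FPKM in the Laser libraries, 11.3 and 9.78 in the PC-La libraries, and 12.8 and 9.61 in the SePC-La libraries. Its groups overlapped in each comparison, and the limma log2 fold changes were 0.13 for PC-La vs Laser (interval -0.29 to 0.55), 0.21 for SePC-La vs Laser (interval -0.21 to 0.62) and 0.07 for SePC-La vs PC-La (interval -0.34 to 0.49). Nt5e, ENSMUSG00000032420 on chromosome 9 from 88327197 to 88372092, plus strand, read 1.07 and 0.534 FPKM in the Laser libraries, 1.17 and 1.24 in the PC-La libraries, and 1.71 and 1.04 in the SePC-La libraries. Its PC-La samples lay above the Laser samples and within the SePC-La libraries. The limma log2 fold change of Nt5e was 0.31 for PC-La vs Laser (interval -0.27 to 0.88) and 0.40 for SePC-La vs Laser (interval -0.18 to 0.98, adjusted p 0.516), on 81 to 212 reads per sample.

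**Figure D3:**
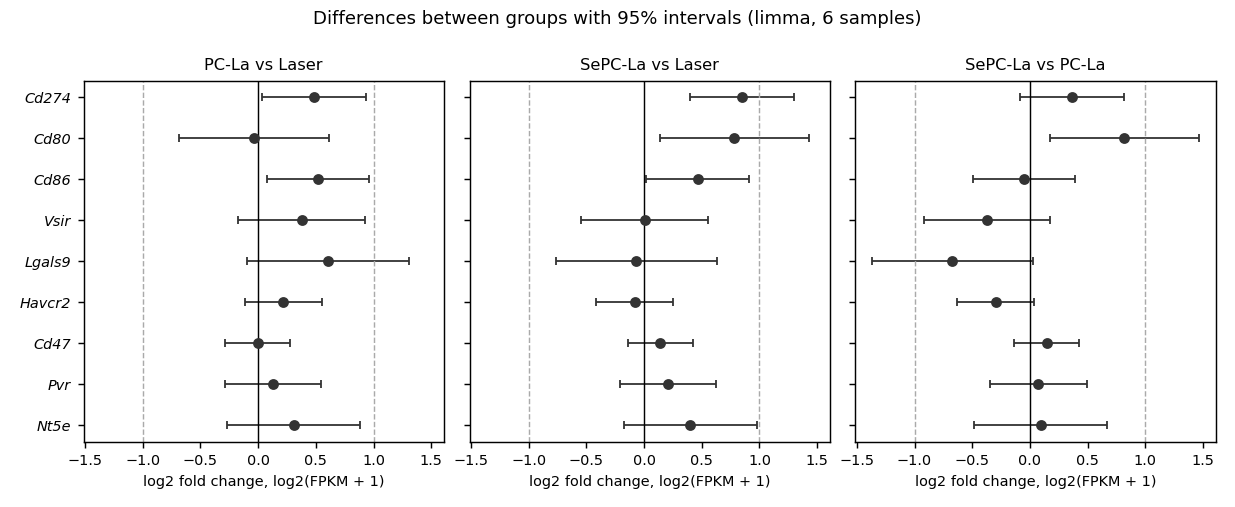
limma log2 fold changes on log2(FPKM + 1) with 95% intervals for the 9 genes that passed the filter (vertical, without Pdcd1lg2), with a panel for each of the 3 comparisons and a vertical line at 0. Against Laser, Cd274 and Cd86 have intervals above 0 for both treatments, and Cd80 has one for SePC-La; for SePC-La vs PC-La, Cd80 alone does, at 0.17 to 1.47.

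Over the 9 tested genes, 7 were higher in PC-La than in Laser and 7 higher in SePC-La than in Laser by the sign of the fit, and 5 were higher in SePC-La than in PC-La. Their median log2 fold change was 0.31 for PC-La vs Laser, 0.21 for SePC-La vs Laser and 0.07 for SePC-La vs PC-La, beside -0.001, -0.065 and -0.074 over all tested genes. PC-La values did not overlap with Laser for 6 of 9 genes, all higher, where 42% of all genes did not overlap, 20.4% as higher and 21.6% as lower. The SePC-La values did not overlap with Laser for 4 of 9, all higher, beside 40.6% of all genes, 15% as higher and 25.6% as lower. Between SePC-La and PC-La, 6 of 9 did not overlap, 3 higher (Cd274, Cd80 and Cd47) and 3 lower (Lgals9, Vsir and Havcr2), beside 65.5% of all genes, 26% as higher and 39.5% as lower. Both of these comparisons with Laser share the same Laser samples, and each of the 10 genes was lower in Laser replicate 2 than in Laser replicate 1.

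**Figure D4:**
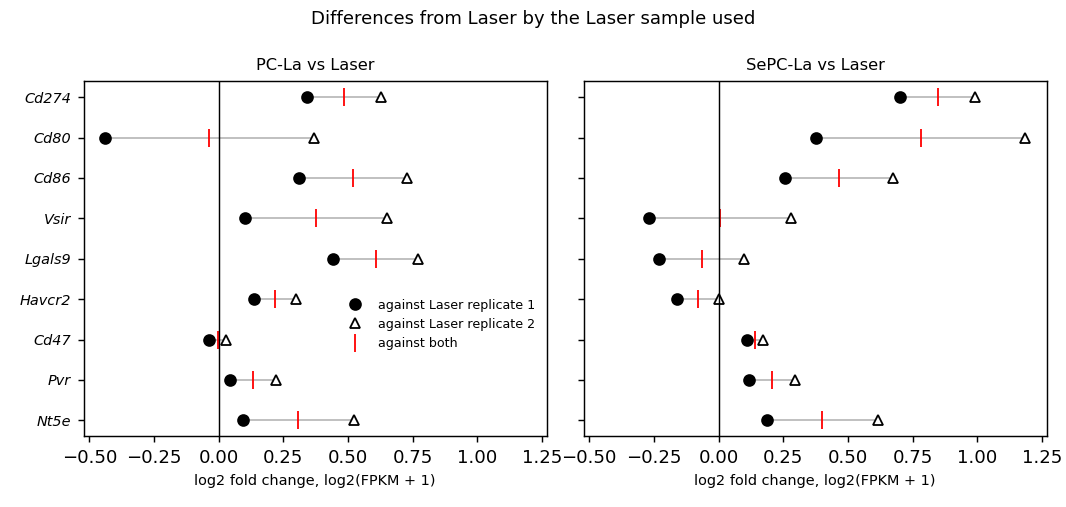
log2 fold changes on log2(FPKM + 1) of PC-La (left) and SePC-La (right) against Laser, computed with Laser replicate 1 alone (circles), Laser replicate 2 alone (triangles) and both (red ticks). Each gene lies further to the right against Laser replicate 2; Cd274 stays between 0.70 and 0.99 for SePC-La, whereas Cd80 spans 0.38 to 1.19 there and -0.44 to 0.37 for PC-La.

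The counterparts of these genes were receptors of the ligands, adenosine receptors and the ectonucleotidase gene Entpd1. They were at low level, apart from Sirpa, Adora2b, Entpd1 and Tigit. Of 10 such counterparts 6 passed the filter. Pdcd1, encoding PD-1, read 2.27 and 1.58 FPKM in the Laser libraries, 2.18 and 2.45 in the PC-La libraries, and 1.00 and 3.47 in the SePC-La libraries. Ctla4 read 1.5 and 0.802 in the Laser libraries, 1.21 and 0.860 in the PC-La libraries, and 0.921 and 2.68 in the SePC-La libraries. Both receptor genes were highest in SePC-La replicate 2, and their groups overlapped in each comparison. Cd28, which encodes the receptor through which CD80 and CD86 costimulate, was below the filter with 0.215 to 0.617 FPKM, as were Cd226, Cd96 and Adora2a, with group means of 0.229 to 0.827 FPKM.

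Tigit, encoding the inhibitory receptor of CD155, was the only 1 of the 6 counterparts past the filter to meet the criterion. It did so for SePC-La vs PC-La, where 2.98% of all tested genes met it and 65.5% had groups that did not overlap. Its FPKM were 6.99 and 9.80 in the Laser libraries, 4.87 and 3.64 in the PC-La libraries, and 16.6 and 10.8 in the SePC-La libraries, an order without overlap in which PC-La was lowest and SePC-La highest. The limma log2 fold change was 1.47 for SePC-La vs PC-La (SE 0.25, unadjusted p 0.000905, adjusted p 0.123), -0.83 for PC-La vs Laser (adjusted p 0.753) and 0.64 for SePC-La vs Laser (adjusted p 0.403). The summed level of 9 T cell markers, of which 6 passed the filter, was 15.6 and 5.68 FPKM in the Laser libraries, 18.0 and 14.8 in the PC-La libraries, and 5.86 and 17.2 in the SePC-La libraries. That of 6 NK cell markers, of which 3 passed the filter, was 10.3 and 16.0, 25.2 and 15.4, and 6.15 and 14.5 in the same groups. Among the latter, Gzma had means of 8.99, 11.5 and 6.06 FPKM in Laser, PC-La and SePC-La, with overlap in each comparison. Prf1 had 2.73, 5.03 and 2.94 FPKM and Klrk1 0.730, 1.59 and 0.847 FPKM in the same order. Both were highest in PC-La without overlap, and so were Ncr1, Klrb1c and Eomes, which stayed below the filter. Of all tested genes 20.4% were higher in PC-La than in Laser without overlap, and 39.5% lower in SePC-La than in PC-La. The part of T cells and NK cells in the Tigit values was not tested. The other counterparts passing the filter were Sirpa, encoding the receptor of CD47, with group means of 21.7 to 24.8 FPKM, the ectonucleotidase gene Entpd1, with 8.24 to 10.7 FPKM, and the adenosine receptor gene Adora2b, with 7.73 to 10.7 FPKM, and none of them met the criterion.

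Of 28 other checkpoint and costimulation genes 17 passed the filter. The criterion was met by 1 for PC-La vs Laser (lower), 1 for SePC-La vs Laser (higher) and 2 for SePC-La vs PC-La (both higher). The shares of all tested genes were 1.29%, 0.682% and 2.98%. At an unadjusted p under 0.05 alone the counts were 4, 4 and 6 of 17, beside 5.78%, 12.1% and 24.3% of all tested genes. Of the last 6, 2 were higher and 4 lower in SePC-La. Thbs1, which encodes thrombospondin-1, a matricellular ligand of CD47, read 76.5 and 53.2 FPKM in the Laser libraries, 21.1 and 27.2 in the PC-La libraries, and 115 and 86.6 in the SePC-La libraries. Its groups did not overlap, and the limma log2 fold change was -1.38 for PC-La vs Laser (SE 0.23, adjusted p 0.419), 2.01 for SePC-La vs PC-La (SE 0.23, adjusted p 0.0763) and 0.64 for SePC-La vs Laser (adjusted p 0.387). Thrombospondin-1 is also stored in platelets, and the 4 summed platelet markers were 75.7 and 90.6 FPKM in the Laser libraries, 20.1 and 18.4 in the PC-La libraries, and 92.0 and 146 in the SePC-La libraries. Pf4 and Ppbp passed the filter and met the criterion as lower in PC-La than in Laser and as higher in SePC-La than in PC-La, whereas Itga2b and Gp9 stayed below it, and Itga2b had a log2 fold change of -0.34 for SePC-La vs PC-La. The part of platelets in the Thbs1 values was not tested.

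Tnfrsf9, encoding the costimulatory receptor 4-1BB, read 17.6 and 7.99 FPKM in the Laser libraries, 8.16 and 10.9 in the PC-La libraries, and 43.7 and 26.3 in the SePC-La libraries. Both SePC-La samples exceeded the others, with a limma log2 fold change of 1.74 against PC-La (SE 0.41, adjusted p 0.126) and 1.43 against Laser (SE 0.41, adjusted p 0.376), the latter being 0.91 without Laser replicate 2 and 1.08 without SePC-La replicate 1, neither of which met the criterion. PC-La stood above both other groups for Cd40, the receptor gene by which T cells license antigen-presenting cells, and for Tnfrsf14, encoding the BTLA ligand HVEM. Cd40 had a mean of 2.82 ± 0.453 FPKM in PC-La against 1.33 ± 0.233 in Laser and 1.39 ± 0.107 in SePC-La (SD, n = 2), with limma log2 fold changes of 0.71 for PC-La vs Laser (adjusted p 0.650) and -0.67 for SePC-La vs PC-La (adjusted p 0.134). Tnfrsf14 had means of 12.5 ± 1.80, 6.91 ± 2.75 and 5.86 ± 0.112 FPKM in PC-La, Laser and SePC-La, and its log2 fold change for SePC-La vs PC-La was -0.97 (adjusted p 0.127). Nectin2, like Pvr a gene of the nectin family, and Cd24a, a ligand of Siglec receptors, were higher in both treated groups than in Laser without overlap, Nectin2 at 3.70 and 3.93 FPKM and Cd24a at 2.64 and 3.34 FPKM in the means of PC-La and SePC-La against 2.21 and 1.77 FPKM. Neither met the criterion. The limma adjusted p for PC-La and SePC-La against Laser was 0.753 and 0.376 for Nectin2, and 0.753 and 0.385 for Cd24a. Of all tested genes 20.4% and 15% were higher than Laser without overlap in these comparisons.

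Of 9 genes of interferon gamma signalling 8 passed the filter. For PC-La vs Laser 1 of the 8 met the criterion, as higher, beside 1.29% of all tested genes. In the other comparisons 0 did. At an unadjusted p under 0.05 in limma alone the counts were 2, 2 and 1 of 8, beside 5.78%, 12.1% and 24.3% of all tested genes. Irf1, which encodes a transcription factor induced by interferons, read 31.8 and 26.5 FPKM in the Laser libraries, 40.9 and 50.3 in the PC-La libraries, and 42.4 and 41.2 in the SePC-La libraries, with limma log2 fold changes of 0.62 (adjusted p 0.644) for PC-La and 0.51 (adjusted p 0.376) for SePC-La against Laser. It was higher in all 4 samples that received a phycocyanin than in the Laser libraries and did not meet the criterion. Socs1, the feedback inhibitor, had means of 7.67, 9.34 and 10.7 FPKM in Laser, PC-La and SePC-La. Set beside Cd274, Socs1 shared its order of the group means. It was the 1 gene of the 8 that was higher in SePC-La than in PC-La by the sign of the fit. The other 7 were lower, and the median over the 8 was -0.19, beside -0.074 over all tested genes. Against Laser, 8 of 8 were higher in PC-La and 4 of 8 in SePC-La. The medians were 0.29 and 0.15, beside -0.001 and -0.065 over all tested genes. The part of this pathway in the Cd274 values was not tested.

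**Figure D5:**
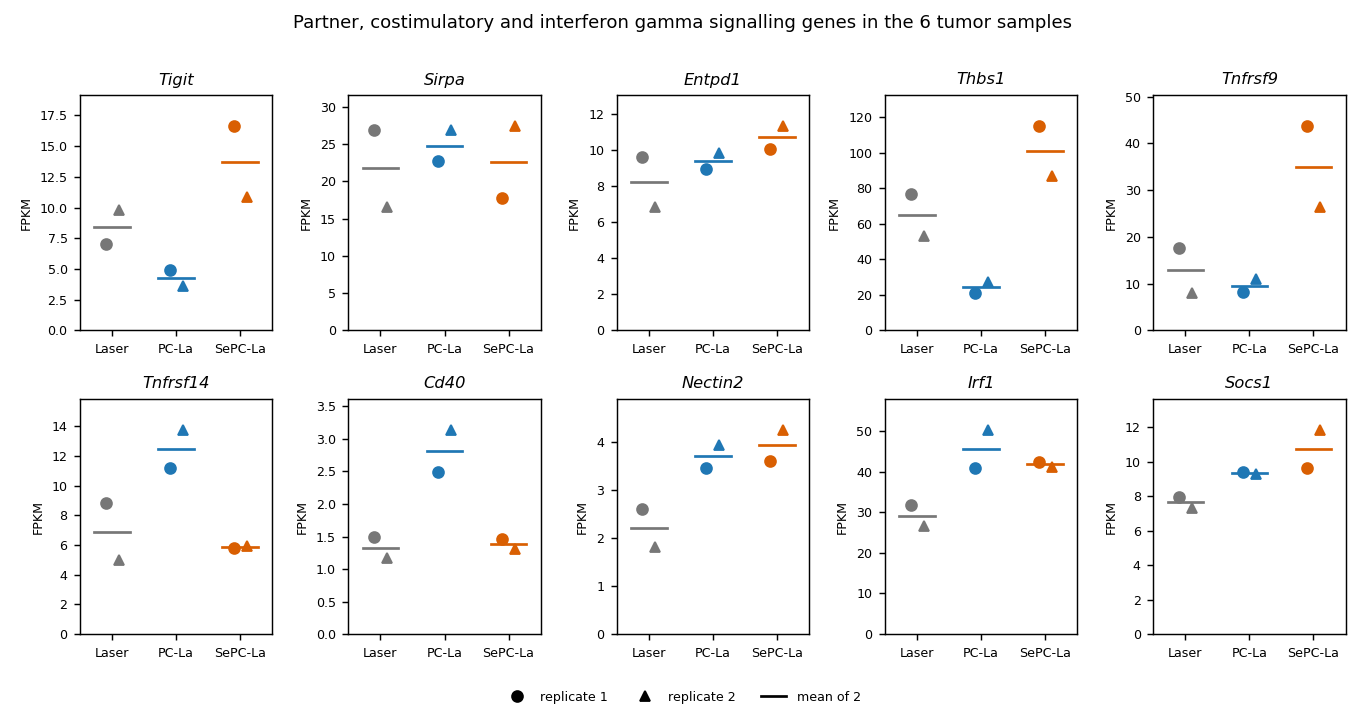
FPKM of counterparts and pathway genes in the 6 samples, with a panel for each gene and its own linear axis from 0; circles are replicate 1, triangles replicate 2 and lines the mean of 2. Tigit, Thbs1 and Tnfrsf9 are highest in SePC-La, with 16.6, 115 and 43.7 FPKM in replicate 1, and Irf1 is lowest in Laser at 31.8 and 26.5.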

How the data were processed

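RNA of 6 tumor samples was sequenced, 2 per group (Laser, PC-La, SePC-La), and the authors deposited a table with 1 FPKM value per gene and sample. The submitters' processing notes name HISAT2 2.0.5, HTSeq 0.9.1, DESeq 1.30.0 and build mm9, and the annotation is not given in the sources used here. Multiplied by GENCODE M21 (GRCm38) exon lengths, the deposited FPKM values of 97.9% of expressed genes came out as whole reads in all 6 samples (tolerance 0.05). Gene positions are from that annotation and promoters from RefSeq.

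Values were used as deposited. The 10853 genes whose mean reached 1 FPKM entered a fit by limma 3.58.1 (R 4.3.3) of log2(FPKM + 1), with a mean per group over all 6 samples. It used empirical Bayes moderation with trend and robust estimation. The fit was also run on simulated data with the same spread setting for every gene and group. The Laser samples were less alike than those of the other groups, so no conclusion is drawn from that run. Adjusted p-values are Benjamini-Hochberg values over all genes tested. Other steps used Python 3.11.15 with pandas 2.3.3, SciPy 1.17.1 and matplotlib 3.10.9. The study's results text describes triplicates, whereas the labels list 2 samples per group. Nothing states that the samples of a group came from separate animals, so p-values measure only the spread between these samples.

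The genes described, and the lists of counterparts, other checkpoint genes, interferon gamma signalling and cell type markers, were chosen with earlier results of these data known. Named are every member, every counterpart and, of the other checkpoint and interferon lists, up to 3 genes per comparison with the smallest unadjusted p under 0.05 and groups that do not overlap; 1 gene so chosen is not reported here. Alternatives were pseudocount 0.1, no filter or a mean of at least 5 FPKM, median-ratio or quantile scaling, no trend, no robust estimation, the 4 samples compared, a replicate block, limma voom on 10630 genes with recovered reads, p under 0.05 at any fold change, and each sample left out.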

Additional observations from a re-analysis of the deposited data

How the results depend on the processing

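With 2 samples per group, and a lone sample assumed to vary like the other groups when 1 was left out, the counts below moved with the samples used. Of the values for single genes under the alternatives, 1062 kept direction and side of the criterion, 41 changed sign, 16 newly met it and 3 no longer met it, and the cause was not tested. Several alternatives cannot move a log2 fold change, so its direction was fixed there. They are the other filters, no trend, no robust estimation, the 4 samples compared, the replicate block and leaving out a sample of the group not compared. The 1062 include such values. Genes meeting the criterion numbered 140 for PC-La vs Laser (68 at a mean of at least 5 FPKM, 220 with voom, 627 at any fold change, 71 to 664 with a sample left out), 74 for SePC-La vs Laser (129 with pseudocount 0.1, 46 at 5 FPKM, 132 with voom, 1318 at any fold change, 60 to 253 with a sample left out) and 323 for SePC-La vs PC-La (488 with pseudocount 0.1, 186 at 5 FPKM, 2637 at any fold change, 169 to 584 with a sample left out). Of the last 323, 128 were higher and 195 lower, against 158 and 154 with median-ratio scaling and 169 and 149 with quantile normalization. Without Laser replicate 1, 312 genes had an adjusted p under 0.05 in limma for PC-La vs Laser and 97 for SePC-La vs Laser, and with only the 4 samples compared 637 did for SePC-La vs PC-La, against 0 in each comparison over all 6.

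Members meeting the criterion, 0 in each comparison, became 2, 3 and 1 at any fold change (PC-La vs Laser, SePC-La vs Laser, SePC-La vs PC-La), with Cd80 as the single gene past it for SePC-La vs Laser with pseudocount 0.1 and voom (1 each) and for SePC-La vs PC-La with pseudocount 0.1, quantile normalization and voom (1 each). With a sample left out they numbered 0 to 0, 0 to 1 and 0 to 1. Their median log2 fold change ranged from 0.10 to 0.52, from 0.12 to 0.40 and from -0.11 to 0.077, and for SePC-La vs PC-La was -0.11 with the 6 members at a mean of at least 5 FPKM. Signs turned for PC-La vs Laser in Cd80 (0.0194 with voom), for SePC-La vs Laser in Lgals9 (0.000279 with median-ratio scaling), Havcr2 (0.013 with quantile normalization) and Pdcd1 (-0.010 with pseudocount 0.1), and for SePC-La vs PC-La in Cd86 (0.012 with median-ratio scaling, 0.078 with quantile normalization) and Pdcd1 (0.0890 with quantile normalization).

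With a sample left out, signs also turned for PC-La vs Laser in Cd80 (-0.44 to 0.37), Cd47 (-0.036 to 0.028), Ctla4 (-0.30 to 0.17), Sirpa (-0.12 to 0.55), Entpd1 (-0.031 to 0.40) and Tnfrsf9 (-0.84 to 0.21). For SePC-La vs Laser they did in Vsir (-0.27 to 0.28), Lgals9 (-0.50 to 0.37), Havcr2 (-0.17 to 0.014), Pdcd1 (-0.54 to 0.62), Ctla4 (-0.14 to 0.79), Sirpa (-0.27 to 0.40), Cd40 (-0.064 to 0.14) and Tnfrsf14 (-0.52 to 0.20). For SePC-La vs PC-La they did in Cd86 (-0.18 to 0.077), Pvr (-0.12 to 0.26), Nt5e (-0.11 to 0.30), Pdcd1 (-0.73 to 0.43), Ctla4 (-0.077 to 0.86), Sirpa (-0.45 to 0.15), Nectin2 (-0.028 to 0.16), Cd24a (-0.044 to 0.50) and Irf1 (-0.26 to 0.031).

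Samples share only a replicate number: deviations of same-numbered samples correlated across genes at 0.086 (Laser and PC-La), -0.428 (Laser and SePC-La) and -0.177 (PC-La and SePC-La). With the replicate number as a block, 133, 81 and 285 genes met the criterion, no member did, and 0, 2 and 1 members had an unadjusted p under 0.05.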

Other observations

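The 4 B cell markers summed to at most 1.33 FPKM in any sample and none passed the filter. The 6 endothelial markers summed to 17.5 to 30.2 FPKM, and the 3 adipocyte markers to at most 6.58 FPKM. The 5 erythroid markers, globin genes and Alas2, summed to 127 and 13.6 FPKM in the Laser libraries, 263 and 361 in the PC-La libraries, and 613 and 932 in the SePC-La libraries, so the samples stood in the order Laser, PC-La, SePC-La without overlap, which is also the order of the Cd274 values; no relation between them was tested. By limma, 5 of 5 met the criterion as higher in SePC-La than in Laser, 3 of 5 in PC-La than in Laser and 1 of 5 in SePC-La than in PC-La. Among all tested genes 0.682%, 1.29% and 2.98% met it in either direction.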
